A study of Homo sapiens with 4 samples.

Results

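AP-1 is a family of dimeric transcription factors, and the 10 genes described here encode its FOS subunits (FOS, FOSB, FOSL1 and FOSL2), its JUN subunits (JUN, JUNB and JUND) and the related basic leucine zipper (bZIP) proteins ATF3, MAFF and BATF3. They are 10 of the 39306 gene names in each table and were taken by name. The set was chosen on the difference between these same libraries, which was already known, so the values of its members are given as a description and are not tested. Total RNA depleted of ribosomal RNA was sequenced in 4 libraries of MHCC97H cells, a human liver cancer line derived from hepatocellular carcinoma. The 2 control libraries came from cells that were wild type for HNRNPM, and the 2 knockdown libraries were made from cells expressing an HNRNPM-directed short hairpin (sh-HNRNPM). HNRNPM is a nuclear ribonucleoprotein that binds RNA and regulates splicing, and the stated aim was to find genes whose splicing it controls. The labels name no control hairpin and give neither the hairpin sequence nor the time of knockdown, so hairpin delivery and loss of HNRNPM cannot be told apart here. The labels do not say whether replicates were separate cultures, so the spread behind each p-value is that between these libraries and may be technical.

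The knockdown libraries were shallower, at 12708165 and 11498663 assigned reads against 18317579 and 19659106 for control cells. Levels are in RPKM, the read count divided by exon length in kilobases and by the library's assigned reads. HNRNPM was at 51.3 and 51.6 RPKM in the controls and at 21.8 and 20.4 RPKM in the knockdown libraries. Its mean deposited RPKM with knockdown was 41.0% of the control mean. The log2 difference, taken on further scaled values, was -1.35 ± 0.07 SE (limma adjusted p = 0.00270). HNRNPM shares 345 bp of exon with RP11-886P16.10 on the opposite strand. The keratins KRT8 and KRT18, which share exon sequence and are uncertain, were at 522 ± 22.6 and 309 ± 44.2 RPKM in the controls (SD, n = 2), and the liver regulator HNF4A was at 6.41 ± 0.142 RPKM. AFP and EPCAM, also on the list of liver markers, were near 0 in the controls, at 0.366 ± 0.0983 and 0.137 ± 0.0512 RPKM. ALB fell from 5.82 ± 0.658 to 1.76 ± 0.0207 RPKM (limma adjusted p = 0.00366). Over all tested genes limma called 11.1% higher, 13.8% lower and 24.9% in either direction at an adjusted p under 0.05. Of 12 fixed liver markers 10 were tested, 1 was called higher (KRT18) and 2 lower (ALB and APOB). APOB, which overlaps an antisense exon, went from 1.86 ± 0.324 to 0.967 ± 0.0920 RPKM (limma adjusted p = 0.0206). The liver markers summed to 812 to 909 RPKM in the controls and 1106 to 1149 RPKM in the knockdown libraries, nearly all of it KRT8 and KRT18. The other 9 measured markers summed to 28.3 to 30.4 RPKM in the controls and 28.5 to 30.4 RPKM in the knockdown libraries. That sum held the falls of ALB and APOB beside FOXA2, at 10.1 ± 1.06 and 13.6 ± 1.42 RPKM (not called). Of 12 markers of leukocytes, endothelium and fibroblasts 9 were tested, 3 were called in each direction, and the sum was 57.4 to 69.3 against 69.9 to 71.4 RPKM. CD68 made up most of that sum, and PTPRC, which defines leukocytes, was at 0 in both controls and at 0.0188 ± 0.0266 RPKM in the knockdown libraries. The 3 called higher were the fibroblast markers LUM (1.13 ± 0.0799 to 2.84 ± 0.208 RPKM), PDGFRB and COL1A1 (knockdown means 0.209 and 0.131 RPKM). The 3 called lower were PECAM1 (8.78 ± 0.329 to 5.90 ± 0.101 RPKM), CDH5 and CD14 (control means 0.321 and 0.784 RPKM). Leaving out 1 library gave 1 to 3 calls among the liver markers and 2 to 3 among the others. The part of these shifts in the AP-1 values was not tested, and in bulk RNA fewer cells with a transcript and less of it per cell cannot be told apart.

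AP-1 proteins bind DNA as pairs held together by their leucine zippers, with the adjoining basic regions touching the DNA. JUN proteins pair with each other or with FOS proteins, whereas FOS proteins need a partner. The pairs bind sites of the form TGANTCA in which N is C or G. FOS, FOSB, JUN, JUNB and ATF3 are textbook immediate early genes, whose transcription starts within minutes of growth factor or stress signals through MAP kinases and whose messengers are short-lived. In the liver, JUN is known for its roles in hepatocyte proliferation and in tumour development in mice.

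The DNA just upstream of the start sites is printed for the 5 members in which it lies outside the annotated exons of the files, because short elements there are shared. The sequences are RefSeq promoters on GRCh38.p14, and 8 of the 10 members were matched, all but FOSL1 and BATF3. Each run below has 120 bases, 5′ to 3′ on the gene's own strand, and ends just before the outermost start that the files or RefSeq give. The regions are chr14:75278654-75278773 (FOS, plus strand), chr19:45467875-45467994 (FOSB, plus strand), chr19:12791366-12791485 (JUNB, plus strand), chr19:18281623-18281742 (JUND, minus strand) and chr1:212565214-212565333 (ATF3, plus strand). Capitals mark TGACGT on either strand (ACGTCA when read on the other), TGACATCA and TATAAA.
FOS: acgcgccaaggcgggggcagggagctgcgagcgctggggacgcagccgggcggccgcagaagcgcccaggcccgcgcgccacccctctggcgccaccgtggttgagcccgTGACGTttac
FOSB: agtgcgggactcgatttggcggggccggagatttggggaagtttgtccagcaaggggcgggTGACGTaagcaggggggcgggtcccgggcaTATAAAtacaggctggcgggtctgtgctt
JUNB: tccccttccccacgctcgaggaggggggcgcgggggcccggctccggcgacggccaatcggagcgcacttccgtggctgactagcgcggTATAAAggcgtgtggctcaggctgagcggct
JUND: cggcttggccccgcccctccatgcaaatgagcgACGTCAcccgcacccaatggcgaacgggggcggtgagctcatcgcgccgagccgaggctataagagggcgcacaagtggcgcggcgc
ATF3: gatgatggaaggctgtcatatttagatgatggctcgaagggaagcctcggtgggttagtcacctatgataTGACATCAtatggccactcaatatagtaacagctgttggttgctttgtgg
The full window searched ran from 250 bases before to 50 bases after the RefSeq start, on both strands, with positions counted from that start. In the files the annotated starts of FOSL2, JUN and MAFF lie 410, 280 and 1227 bases upstream of the RefSeq start. The windows of FOSL2, JUN and MAFF thus lie wholly downstream of those annotated starts. The TGACGT core of the cyclic AMP response element was found at -64 in FOS, -60 in FOSB, -66 in FOSL2, -87 and -200 in JUND and -54 in MAFF, that is in 5 of 8 members, in 8.32% of 27305 promoters and in 11.3% of the 10930 promoters of other tested genes. The related TGACATCA was at -67 in JUN and -123 in ATF3, 2 of 8 members against 2.71% of all promoters and 1.46% of tested ones. These 2 motifs were added after the sequences had been read. Either motif was in 7 of 8 members, in 10.9% of all promoters and in 12.6% of tested ones. The full TGACGTCA, which also counts as TGACGT on both strands, was in JUND and MAFF, in 1.98% of all promoters and in 3.09% of tested ones. TATAAA lay at -33 in FOS, -30 in FOSB and -31 in JUNB, 3 of 8 members against 12.0% of all and 6.26% of tested promoters. TGANTCA was searched with any base at N, a pattern wider than the AP-1 site itself. Among these windows it was only in FOSL2, at position 4, against 7.76% of all and 4.97% of tested promoters. GGGCGG was in 7 of 8 members against 44.6% of all and 67.1% of tested promoters. The CArG box, the serum response factor site, was in none of these 8 windows, in 1.29% of all promoters and in 0.952% of tested ones. Bases further than 250 upstream of the start were not searched, so a site there would be missed. Other starts of a gene were not searched either, such as any within the 55444 bp that ATF3 spans. The ATF3 window lay at the upstream end of that span and had a GC content of 48%. The windows of the members had a median GC content of 65.5%, and those of the other tested genes 64.7%. A match is a string of letters and not a measured binding event.

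All 10 members passed the filter on low values, as did 20221 names in all. Differences below are knockdown minus control in log2(RPKM/TMM factor + 0.1), which understates the difference of genes at low levels. In 9 of the 10 members both knockdown libraries lay above both controls, which held for 31.0% of all tested genes. A log2 difference of at least 1 was reached by 3 members and by 2.47% of tested genes. The median difference was 0.93 over the members and 0.89 without FOS and FOSB, beside -0.03 over all tested genes. Leaving out control replicate 1, control replicate 2, knockdown replicate 1 or knockdown replicate 2 gave 4, 4, 5 or 3 members at 1 or more. Because the members were chosen on this contrast, nothing is read from these counts.

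**Figure D1:**
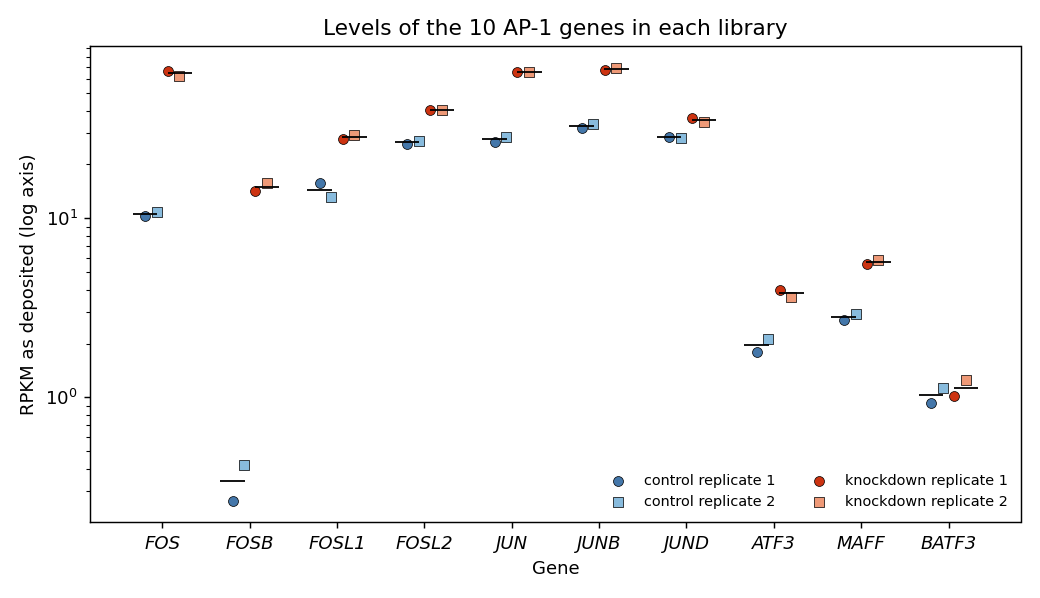
RPKM as deposited (log axis) of the 10 AP-1 genes in the 4 libraries; circles are replicate 1, squares replicate 2, blue control, red knockdown, and bars mark group means. The knockdown points lie above the control points in every gene except BATF3, and the widest gap is that of FOSB, 0.343 against 15.1 RPKM.

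Among the FOS subunits, FOS (chromosome 14, 75278774 to 75282230, plus strand, 3 merged exons) stood at 10.3 and 10.8 RPKM in the controls and at 66.8 and 62.2 RPKM in the knockdown libraries. FOS is the prototype immediate early subunit, with a strong transactivation domain. The groups were far apart, 6.10-fold between means of the deposited RPKM. The log2 difference after TMM scaling was 2.53 ± 0.07 (SE), the ninth largest increase among tested genes (rank 9). These values rest on 611 and 689 control reads and on 2747 and 2315 knockdown reads. FOSB (chromosome 19, 45467995 to 45475179, plus strand), the closest relative of FOS, was nearly silent in the controls, at 0.265 and 0.421 RPKM from 27 and 46 reads. In the knockdown libraries FOSB was at 14.3 and 15.8 RPKM from 1008 and 1012 reads. The ratio of deposited means was 43.9 and the log2 difference after TMM scaling 5.06 ± 0.20, rank 1 of all tested genes. Its size depends on the low control level: a pseudocount of 1 in place of 0.1 gave 3.54.

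The FOS-related antigens FOSL1 and FOSL2, which lack the strong transactivation domains of FOS, had smaller differences. FOSL1 (chromosome 11, 65892049 to 65900573, minus strand) was at 15.7 and 13.2 RPKM in the controls and at 27.7 and 29.3 RPKM in the knockdown libraries, a log2 difference of 0.92 ± 0.10. FOSL2 (chromosome 2, 28392448 to 28417312, plus strand), with 7157 bp the longest of the set in merged exon sequence, was at 26.1 and 27.1 RPKM in the controls and at 40.2 and 40.1 RPKM in the knockdown libraries. Its log2 difference was 0.53 ± 0.07, and the groups did not overlap for either gene. FOSL2 was the most abundant FOS subunit in control cells and FOS in knockdown cells.

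JUN (chromosome 1, 58780788 to 58784327, minus strand), the founding subunit, was at 26.8 and 28.6 RPKM in the controls and at 65.8 and 65.6 RPKM in the knockdown libraries. The difference was 1.18 ± 0.07 on the log2 scale after TMM scaling. Means of the deposited RPKM, without that scaling, differed 2.38-fold. JUNB (chromosome 19, 12791496 to 12793315, plus strand), which activates simple AP-1 sites more weakly than JUN, was at 32.1 and 33.7 RPKM in the controls and at 67.3 and 69.5 RPKM in the knockdown libraries, a difference of 0.99 ± 0.07. JUNB shares 259 bp of exon with HOOK2 on the opposite strand, and HOOK2 went from 6.97 ± 0.484 RPKM (SD, n = 2) to 11.1 ± 0.520 RPKM with knockdown. Whether reads were counted by strand is not stated, so the JUNB value is uncertain by the reads of that overlap. JUND (chromosome 19, 18279760 to 18281622, minus strand), the subunit known for steady expression in resting cells, was at 28.5 and 28.3 RPKM in the controls and at 36.2 and 34.7 RPKM in the knockdown libraries. Its difference of 0.26 ± 0.06 was the smallest of the 9 members whose groups did not overlap.

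Of the 3 related bZIP genes, ATF3 (chromosome 1, 212565334 to 212620777, plus strand), a stress-induced repressor and JUN partner, was at 1.80 and 2.12 RPKM in the controls and at 3.97 and 3.66 RPKM in the knockdown libraries. MAFF (chromosome 22, 38200767 to 38216511, plus strand), a small MAF protein without a transactivation domain, was at 2.70 and 2.91 RPKM in the controls and at 5.55 and 5.87 RPKM in the knockdown libraries. The log2 differences were 0.87 ± 0.14 and 0.94 ± 0.11, on 133 to 204 reads per library for ATF3 and 278 to 396 for MAFF. BATF3 (chromosome 1, 212686418 to 212699985, minus strand), known for its role in dendritic cell development, was at 0.926 and 1.12 RPKM in the controls and at 1.02 and 1.25 RPKM in the knockdown libraries. Its groups overlapped, the difference was 0.07 ± 0.19 on 35 to 60 reads per library, and its sign turned without knockdown replicate 2 (-0.09) and without control replicate 1 (-0.06). At this depth the 95% interval of the BATF3 ratio ran from 0.755 to 1.46.

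**Figure D2:**
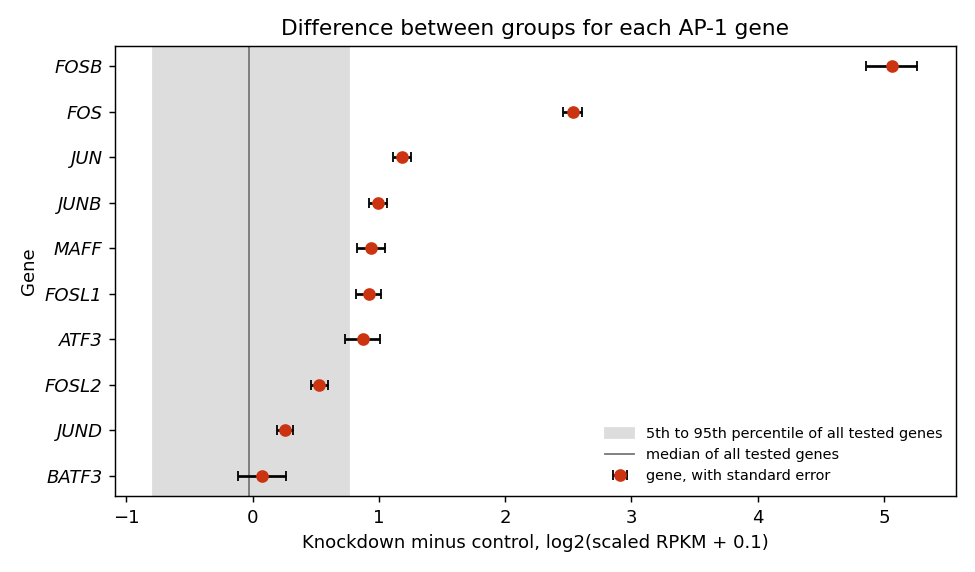
Log2 difference, knockdown minus control, of each AP-1 gene with its standard error from the limma fit (2 against 2 libraries); the grey band spans the 5th to the 95th percentile of all tested genes and the line their median, -0.03. FOSB (5.06) and FOS (2.53) lie far to the right of the band, while FOSL2 (0.53), JUND (0.26) and BATF3 (0.07) lie inside it.

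The order of levels, compared per kilobase of exon, was not the same in the 2 groups. In control cells JUNB was highest at 32.9 ± 1.12 RPKM (SD, n = 2), followed by JUND at 28.4 ± 0.159, JUN at 27.7 ± 1.27 and FOSL2 at 26.6 ± 0.691 RPKM. The libraries of JUND and JUN overlapped, as did those of JUN and FOSL2, so these neighbours were not separated. FOSL1 at 14.4 ± 1.75 and FOS at 10.6 ± 0.369 RPKM came next, and MAFF, ATF3, BATF3 and FOSB were all below 3 RPKM. In knockdown cells JUNB was again highest at 68.4 ± 1.59 RPKM, with JUN at 65.7 ± 0.128 and FOS at 64.5 ± 3.24 RPKM, which were not separated from each other. FOSL2 followed at 40.1 ± 0.0638, JUND at 35.5 ± 1.10, FOSL1 at 28.5 ± 1.12 and FOSB at 15.1 ± 1.11 RPKM. FOS thus stood at rank 6 in control and rank 3 in knockdown cells, FOSB at ranks 10 and 7, and JUND at ranks 2 and 5.

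Summed over subunits, the FOS family had 52.3 and 51.5 RPKM in the controls and 149 and 147 RPKM in the knockdown libraries, a ratio of 2.85 between group means. The JUN family had 87.3 and 90.5 RPKM in the controls and 169 and 170 RPKM in the knockdown libraries, a ratio of 1.91. FOS-family RNA was 0.599 and 0.569 times JUN-family RNA in the controls and 0.880 and 0.868 times in the knockdown libraries. On the log2 scale this ratio was -0.78 ± 0.05 in control and -0.19 ± 0.01 in knockdown cells (SD, n = 2), and the groups did not overlap. Within the FOS family, FOS made up 20.3% ± 0.937 of the RPKM in control and 43.5% ± 1.87 in knockdown cells, and FOSB 0.663% ± 0.220 and 10.2% ± 0.821. FOSL2 and FOSL1 went the other way, from 51.2% ± 1.90 to 27.1% ± 0.154 and from 27.8% ± 3.06 to 19.3% ± 0.894 of the family, although their own levels were higher in knockdown cells. Within the JUN family, JUN made up 31.1% in control and 38.7% in knockdown cells, JUNB 37.0% and 40.3%, and JUND 32.0% and 20.9%. These are shares of RNA and say nothing of protein or of the pairs formed.

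**Figure D3:**
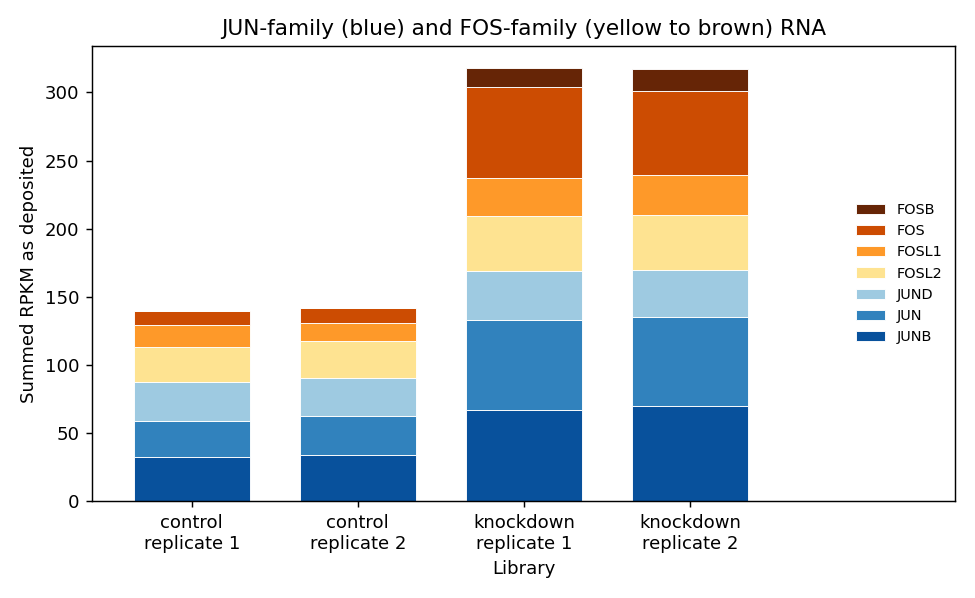
Summed RPKM as deposited of the 3 JUN-family (blue) and 4 FOS-family (yellow to brown) genes, 1 stacked bar per library. The knockdown bars reach 318 and 317 RPKM and the control bars 140 and 142 RPKM, and the FOS segment grows most, from a mean of 10.6 to 64.5 RPKM.

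Of the members 8 spanned less than the median tested gene, and ATF3 (55444 bp) and FOSL2 (24865 bp) spanned more. JUN, JUNB and JUND had 1 exon each, as did 15.8% of tested genes. The median span was 7855 bp over the members and 19613 bp over tested genes, with 3.5 and 7 merged exons, whereas exon length was alike at 3389 and 3572 bp. Of the members 6 spanned less than 10000 bp. Among the 7315 other tested genes of that span, 13.8% were called higher and the median log2 difference was -0.01. Among 3184 other tested single-exon genes 14.9% were called higher and the median was 0.02.

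The messengers were also searched for TTATTTATT, the AU-rich element bound by the decay factor ZFP36, in the longest 3′ UTR of GENCODE v29. It occurred in FOS, FOSL2 and MAFF, 3 of 10 members, against 8.76% of 13044 other tested genes. The site is shown with neighbouring bases (30 in all, GRCh38, plus strand) for FOS at chr14:75282060-75282089, for FOSL2 at chr2:28416355-28416384 and for the upstream one of 2 in MAFF at chr22:38215914-38215943. Capitals mark the element.
FOS: tgtttttaatTTATTTATTaagatggattc
FOSL2: atttattttaTTATTTATTttaaatgttta
MAFF: tccccactgtTTATTTATTgcacggatcta
The shorter ATTTA occurred 5 times in the 806 bases of the FOS 3′ UTR, and the median was 2.39 per kilobase over the members and 1.59 over the other genes. Median 3′ UTR lengths were 1029.5 and 1308.5 bases. FOSB, FOSL1, JUN, JUNB, JUND, ATF3 and BATF3 held no TTATTTATT in this UTR, and each held at least 1 ATTTA. Whether these elements bear on the differences between the groups was not tested.

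Genes around AP-1 were taken from fixed lists and tested in the same fit. The lists were drawn up with earlier results of these data known. Calls are limma adjusted p under 0.05, to be read against 11.1% of all tested genes called higher and 13.8% called lower. A list is described by its counts and median only. CREB1 and ATF1 stand both among the other bZIP genes and among the promoter factors and are counted in each. Leaving out 1 library leaves 1 arm with a single library, which is then assumed to vary like the others. The scaling matters for the balance of directions: over all genes 44.5% of calls were higher with TMM factors and 55.5% without scaling beyond the deposited RPKM. The 2240 genes called higher and 2792 called lower became 488 and 821 when knockdown replicate 1 was left out, 547 and 1149 when knockdown replicate 2 was, and 1719 and 1686 when control replicate 2 was.

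Of 14 tested bZIP partners of AP-1, such as the BATF, small MAF and NRF proteins, 3 rose, 2 fell and 9 were not called, with a median of 0.08. NFE2 was below the filter. BATF, a JUN partner without a transactivation domain, rose from 2.43 ± 0.425 to 4.64 ± 0.0894 RPKM (log2 difference 0.85, limma adjusted p = 0.0141). ATF2, another JUN partner, rose by 0.43 (limma adjusted p = 0.0256), and ATF7 was the third called higher (0.35). NFE2L3 fell by 1.09 and NFE2L1 by 0.55 (limma adjusted p = 0.0165 and 0.0179). The 2 control libraries of NFE2L3, at 4.48 and 6.13 RPKM, lay apart but both above the knockdown libraries. ATF2 and NFE2L1 overlap antisense exons, and ATF7 exons on both strands, so all 3 are uncertain. No call of the list was kept under every left-out library: without knockdown replicate 1, 1 gene was called (limma adjusted p of NFE2L3 = 0.0437), and without knockdown replicate 2, 0 were (limma adjusted p = 0.0591 to 0.0807 for these 4 named genes). Without control replicate 1, 3 were called and ATF2 was not (limma adjusted p = 0.0668). In the full set 8 partners had an unadjusted p under 0.05 and limma-voom called 9.

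Of 23 other tested bZIP genes 8 rose and 3 fell, with a median of 0.09. NFIL3, a transcriptional repressor, rose from 14.9 ± 0.344 to 29.5 ± 1.25 RPKM, a log2 difference of 0.91 (limma adjusted p = 0.00373). CEBPD and CEBPB, factors of the hepatic acute-phase response, rose by 1.12 and 0.68 (limma adjusted p = 0.00503 and 0.00462). ATF5 rose by 0.73 (limma adjusted p = 0.00428). These 4 calls held without any 1 library. Without knockdown replicate 1 the list had 6 calls, all of them higher. CEBPB and ATF5 overlap antisense exons and are uncertain. CEBPE was not analysed here and HLF was below the filter.

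Of 28 tested genes of the MAP kinase cascades that act on FOS and JUN 3 rose and 1 fell, with a median of 0.06. MAPK3, which encodes ERK1, rose from 6.01 ± 0.00404 to 8.63 ± 0.530 RPKM (log2 difference 0.45, limma adjusted p = 0.0226). MAPK13 rose by 0.68 and MAP2K1 by 0.29, and MAP2K6 fell by 0.80 (limma adjusted p = 0.0307, 0.0317 and 0.0199). All 4 calls were lost when control replicate 1, control replicate 2 or knockdown replicate 1 was left out (limma adjusted p = 0.0528 to 0.188), and leaving out knockdown replicate 2 kept only MAP2K6 (limma adjusted p = 0.0493). In the full set 10 genes had an unadjusted p under 0.05 and limma-voom called 11. MAP2K1 overlaps antisense exons and is uncertain. RNA levels do not show kinase activity.

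Of 17 factors known to act at the FOS and JUN promoters 5 rose and 12 were not called, with a median of 0.26. ELK3, a partner of serum response factor, rose from 10.8 ± 0.452 to 17.2 ± 0.489 RPKM (log2 difference 0.60, limma adjusted p = 0.00748). MEF2A rose by 0.52, STAT3 by 0.33 and YY1 by 0.30 (limma adjusted p = 0.0164, 0.0334 and 0.0410). CREB1, which binds TGACGT, was called at 0.46 (limma adjusted p = 0.0412). SRF itself was not called at 0.04, and neither was ATF1 at 0.26 (limma adjusted p of ATF1 = 0.263). Without control replicate 1, control replicate 2, knockdown replicate 1 or knockdown replicate 2 the list had 4, 2, 1 or 0 calls. ELK3 was lost without knockdown replicate 2 (limma adjusted p = 0.0577), MEF2A without either knockdown library (0.0695 and 0.102), and STAT3 and YY1 without any 1 library (0.0619 to 0.190). In the full set 6 had an unadjusted p under 0.05 and limma-voom called 8. ELK3, MEF2A, YY1 and CREB1 overlap antisense exons and are uncertain.

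Of 18 genes that act on AU-rich or deadenylated messengers 5 rose and 2 fell, with a median of 0.02. The 2 that fell were CNOT1 and PAN2, with log2 differences of -0.30 and -0.51 (limma adjusted p = 0.0302 and 0.0290). CNOT1 and PAN2 each have exon sequence in common with a neighbouring gene, which makes their values less sure. ZFP36, whose protein promotes decay of AU-rich messengers, rose from 22.9 ± 0.160 to 54.6 ± 0.154 RPKM, a log2 difference of 1.19 (limma adjusted p = 0.00279). Its relative ZFP36L1 rose by 0.61, BTG2, which stimulates deadenylation, by 0.98, and the deadenylase subunit CNOT8 by 0.52 (limma adjusted p = 0.00636, 0.00697 and 0.0163). ZFP36 and BTG2 were called without any 1 library. ZFP36L1 was lost without knockdown replicate 2 (limma adjusted p = 0.0550) and CNOT8, which overlaps an antisense exon, without either knockdown library (0.0857 and 0.0974). The list had 3 calls without knockdown replicate 1 and 2 without knockdown replicate 2.

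Of 13 genes that act in the turnover of JUN and FOS proteins limma called 0, with a median of -0.07. In that fit 3 had an unadjusted p under 0.05, and limma-voom called 3. The most abundant by the mean over all 4 libraries were ITCH, a JUN ubiquitin ligase, at 16.2 ± 0.840 and 19.1 ± 0.860 RPKM, and the ligase scaffold CUL1 at 19.1 ± 1.09 and 17.6 ± 1.33 RPKM in control and knockdown cells (limma adjusted p = 0.152 and 0.160). Both overlap exons of other genes.

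Of 28 tested genes described as AP-1 targets 7 rose, 6 fell and 15 were not called, with a median of 0.06. MMP7, which encodes matrilysin, fell from 77.9 ± 6.01 to 26.7 ± 0.778 RPKM, a log2 difference of -1.60 (limma adjusted p = 0.00273), and was called without any 1 library. The integrin ITGA2 fell by 0.67 (limma adjusted p = 0.0114). CXCL8, the chemokine interleukin 8, rose from 0.554 ± 0.0706 to 1.36 ± 0.0192 RPKM (log2 difference 1.11, limma adjusted p = 0.0114), and FTH1, the ferritin heavy chain, by 1.09 (limma adjusted p = 0.00779). The calls of ITGA2, CXCL8 and FTH1 were lost without either knockdown library (limma adjusted p = 0.0502 to 0.0678). The list had 2 calls when either knockdown library was left out. FTH1 has many processed copies and an antisense overlap and is uncertain. A further 8 targets, MMP3, MMP9, MMP10, MMP13, IL6, IL11, KRT14 and IVL, were below the filter.

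**Figure D4:**
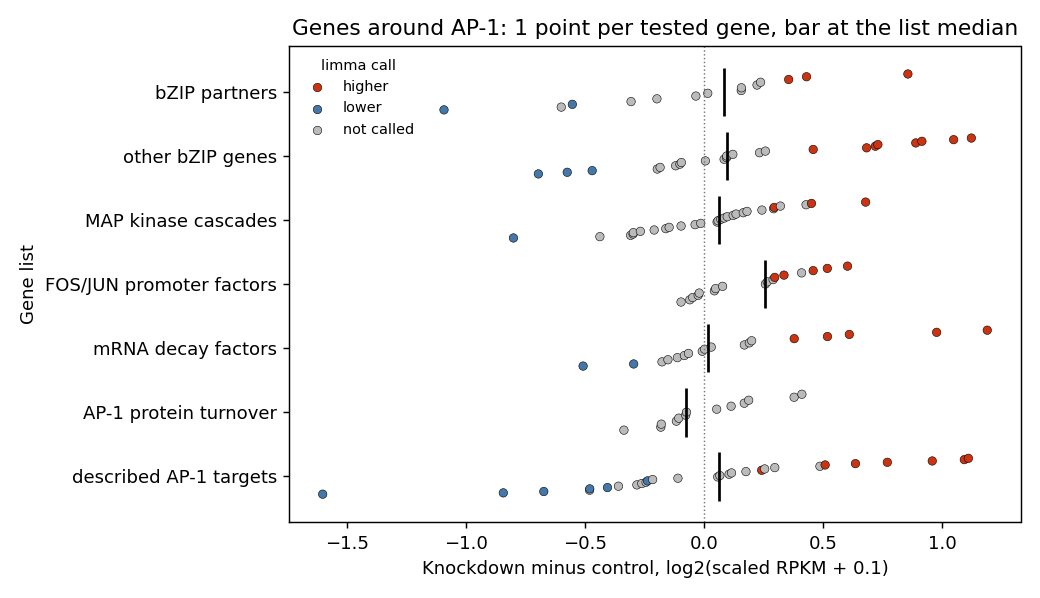
Log2 difference, knockdown minus control, of every tested gene of the 7 fixed lists, with 1 point per gene in each list. Bars mark the list medians, and red and blue points passed limma adjusted p under 0.05. CREB1 and ATF1 appear both among the other bZIP genes and among the promoter factors. The medians lie between -0.07 (AP-1 protein turnover) and 0.26 (promoter factors), and both colours occur in 5 of the 7 lists.

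The genes whose 4 values were most like those of FOS and JUN were found by the Euclidean distance between log2 values centred on their mean, over 12848 candidates and 4 libraries. Nearest to FOS was DUSP1, a phosphatase that inactivates MAP kinases, at a distance of 0.214, with means of 4.05 ± 0.276 and 27.8 ± 1.79 RPKM (SD, n = 2) without and with the knockdown. LYVE1, MAP7D2, APOA4 and CST1 followed at 0.284 to 0.320, and 7 candidates lay within 0.5. Around JUN 352 candidates lay within 0.5, led by ZNF185 (0.0541), ADAMTSL4-AS1 (0.0554), NDRG1 (0.0573), DDIT4 (0.0640) and PNRC1 (0.0698). ADAMTSL4-AS1 and DDIT4 overlap exons on the opposite strand. The distance includes the difference between the groups itself.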

How the data were processed

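Total RNA of 2 wild-type and 2 sh-HNRNPM libraries of MHCC97H cells was sequenced paired-end with a stranded kit that adds unique molecular identifiers, per the labels' protocols. The authors deposited RPKM per gene name. The submitters' processing notes list StringTie 1.3.2, edgeR 3.12.1, Subread 1.5.1 with featureCounts, and Trimmomatic 0.36. Which aligner was used, and how strand and identifiers were handled, is not given in the sources. The notes name mm9, but of 26436 names found once in GENCODE v29 (GRCh38), 99.7% matched in chromosome and 93.6% in start and end, including all 10 members. The deposited RPKM gave whole reads for 100% of values within 0.01 of a read, and recovered totals are the depth.

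RPKM was divided by TMM factors (30% and 5% trimming on recovered reads) and log2(RPKM/TMM factor + 0.1) was tested in R 4.3.3 by limma 3.58.1 (trended, moderated spread; no covariates; Benjamini-Hochberg adjustment). Genes needed the equivalent of 10 reads at median depth in 2 libraries and 15 in total (20221 tested). Residual degrees of freedom were 2 and prior ones 3.56; an exact permutation test of 2 against 2 cannot go below p = 0.333. On the recovered reads limma-voom called 7232 genes.

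The members and gene lists were chosen with earlier results of these data known. Named are the members, HNRNPM, in every list the 4 called genes of lowest adjusted p (otherwise the 2 most abundant), and the 5 genes nearest to FOS and to JUN among those with a mean CPM of at least 5. ATF1, ATF7, CNOT1, CREB1, HOOK2, PAN2, SRF and the marker genes were named beside that rule, after their values were seen. Alternatives were other scaling, pseudocounts 1 and 0.01, no filter, a filter of 30 reads, limma-voom, a replicate block and leaving out each library.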

Additional observations from a re-analysis of the deposited data

How the results depend on the processing

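All 12 alternatives kept the direction of the 9 members that differed and of HNRNPM, and HNRNPM passed the threshold in each. FOSB ranged from 3.54 to 5.40 and FOS from 2.44 to 2.60 on the log2 scale, while BATF3 ranged from -0.09 to 0.23. Of 312 values of the 26 named list genes under alternatives, 253 stayed on the same side of the threshold and 59 no longer passed it. Without a filter on low values 1806 genes were called, 693 higher and 1113 lower, with 0 partners, 7 other bZIP genes, 0 kinases, 1 promoter factor, 3 decay factors and 2 targets; more genes are tested there. The stricter filter called 7 kinases and 3 turnover genes. Limma-voom called 9 partners, 11 kinases, 8 promoter factors and 3 turnover genes. Without scaling beyond the deposited RPKM 1 turnover gene was called, and the all-gene median moved from -0.03 to 0.03. Leaving out 1 library gave 1309 to 3756 calls, 488 to 1827 higher and 821 to 1929 lower, with 0 to 4 partners, 6 to 12 other bZIP genes, 0 to 1 kinases, 0 to 4 promoter factors, 2 to 6 decay factors and 2 to 15 targets; fewer samples enter there. The replicate block called 2348 genes higher and 2781 lower, and 1 turnover gene, and lost YY1. Across tested genes, the deviations of control replicate 1 and knockdown replicate 1 from their group means had a correlation of 0.0628. With 2 libraries per group the other pair only mirrors this value. The numbers were not taken to pair the libraries. Depth limits FOSB in the controls (27 and 46 reads) and BATF3 (35 to 60 reads), and no control hairpin is named. The cause of the changes in counts was otherwise not tested.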

Other observations

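Among 10930 tested promoters outside the AP-1 set 10.5% belonged to genes called higher and 14.8% to genes called lower. For the 1381 with TGACGT or TGACATCA these shares were 11.7% and 14.5%, and for the 684 with TATAAA 13.0% and 13.2%. The 543 promoters with TGANTCA, a pattern wider than the AP-1 site, had 12.2% called higher and 15.1% called lower. The 104 promoters with a CArG box, an element that none of the 8 matched AP-1 windows held, had 18.3% called higher and 8.65% called lower, with a median log2 difference of 0.06 beside -0.04 over all these promoters. No test of these shares was made.

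Genes with a TTATTTATT element in the 3′ UTR were called higher in 10.8% of 1143 cases, and genes without it in 10.9%. By 3′ UTR length, genes of up to 549 bases had 15% called higher with the element (40 genes) and 11.5% without it. Genes of 549 to 1308.5 bases had 18.3% (169 genes) and 11.2%, those of 1308.5 to 2660 bases 8.51% (282 genes) and 11.7%, and longer ones 9.66% (652 genes) and 8.62%. From the shortest class to the longest, median log2 differences with the element were -0.08, 0.01, -0.03 and -0.01. Without it they were -0.03, -0.06, -0.02 and -0.04. No test of these shares or medians was made.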
